A study of Mus musculus with 24 samples.

Results

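Organoids grown from fetal mouse intestine were compared between day 30 and day 3 of culture. The comparison takes 8 of the 24 arrays of the series, 4 at each day, chosen by the stage and day that their labels give, and it covers every gene named alone by a probe set, 30702 in all. Genes that became higher or lower between these days are described here beyond the usual markers of intestinal maturation. Results that rest on the day 3 arrays with the most stomach gene signal are also given without them.

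The organoids came from the intestine of mice of stage E19, shortly before birth, and all organoids of the series grew in ENR, a standard medium with EGF, Noggin and R-spondin. Adult organoids at day 3 and day 30, with 4 arrays each, serve as the same contrast in the other organoids. Newborn (stage P0) and adult whole intestine, also with 4 arrays each, were fitted in the same model and are cited for a few levels. The labels give no strain, genotype, sex or treatment, and they leave unsaid if replicates are separate animals, cultures or platings. The tests therefore measure the spread between arrays, which may be technical, pooled for each gene over all groups fitted. The median standard deviation over genes was 0.163 in fetal day 3 organoids and 0.109 to 0.148 in the other groups. The pooled standard error can thus be too small for genes that vary most in the fetal organoids. With the fetal organoid arrays alone, 1011 genes rose and 1491 fell, against 2080 and 2690 with all groups. That fit also has fewer arrays and so less power. With 4 arrays a group, precision is limited by their number.

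An intestinal organoid is a culture grown from intestinal epithelium, in which stem cells in bud-like crypts give rise to absorptive and secretory cells. Before weaning, the rodent gut takes up milk proteins by endocytosis, and its Paneth cells and many of its detoxifying enzymes appear or increase after birth. Regenerating intestinal epithelium is known for raised YAP target genes and annexins.

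Values are log2 levels, so a change of 1 is a 2-fold change, and changes are given as day 30 minus day 3 with the standard error (SE) of limma's fit and its adjusted p. Genes with an adjusted p below 0.05 are called. Of the 30702 genes, 2080 rose (6.77%) and 2690 fell (8.76%), 15.5% in all. At least 2-fold, 247 rose (0.805%) and 481 fell (1.57%). The 4 day 3 and 4 day 30 arrays did not overlap for 4679 genes (15.2%). Array medians lay between 4.18 and 4.38. The negative control probe sets, whose median on each array served as background, lay at 3.84 to 4.04 at day 3 and 4.15 to 4.38 at day 30, so the background by this measure rose with the day. A change is given as a lower bound where one day's mean lay below it. The mean level of background probes was 4.04 on day 3 array 1, 3.43 to 3.63 on the other day 3 arrays and 3.27 to 3.51 on the day 30 arrays. This second measure thus did not rise with the day, and the bounds rest on the negative controls alone.

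The markers of intestinal epithelium were high on all arrays, as their 17 genes averaged 10.16 to 10.41 on the day 3 arrays and 10.15 to 10.37 on the day 30 arrays. Such a mean does not show that other epithelium was absent. Of these 17 genes 4 rose and 1 fell (median -0.10), and 2 rose and 0 fell without day 3 arrays 2 and 3. Stomach genes were uneven within day 3. The 30 gastric epithelium genes averaged 5.96, 6.92, 6.85 and 5.25 on day 3 arrays 1 to 4, and 4.93, 4.85, 5.73 and 5.18 on the day 30 arrays. The 11 measured genes of pancreatic acinar cells, which make digestive enzymes, averaged 5.85, 7.15, 7.22 and 4.73 at day 3 and 4.59 to 4.83 at day 30. Day 3 arrays 2 and 3 were thus the highest for both lists, array 4 lay within the day 30 range, and array 1 lay between. On all genes, 215 were at least 2-fold higher on arrays 2 and 3 than on arrays 1 and 4, and 114 of these fell. Another 92 were at least 2-fold lower there, and 46 of these rose. High levels on these day 3 arrays themselves add to a fall and low ones to a rise, so these counts are linked to the calls.

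Without arrays 2 and 3, 1266 genes rose (4.12%) and 1811 fell (5.9%). Of the 247 genes that rose at least 2-fold, 202 (81.8%) were still called, and of the 481 that fell at least 2-fold, 381 (79.2%) were. Without arrays 1 and 4 instead, 226 (91.5%) and 464 (96.5%) were. Fewer arrays also leave less power, so a lost call need not come from stomach signal. Nor is a kept call free of it, as array 1 remained, with a gastric mean of 5.96, above every day 30 array. No called gene changed sign without arrays 2 and 3, but genes whose day 3 and day 30 arrays did not overlap could not do so. Of the same 481 genes, 253 were higher on both of arrays 2 and 3 than on arrays 1 and 4, and 51 were lower on both. The share of all genes with either pattern was not counted, and the first pattern itself adds to a fall. Stomach genes themselves moved with these arrays. Gkn2, which encodes a gastrokine of the gastric surface, read 6.63, 10.50, 10.38 and 4.45 at day 3 and 3.47 to 4.46 at day 30, a fall of at least 12.8-fold, and its fitted change, which a level below background limits, was -1.76 without arrays 2 and 3 against -4.22 with them. Day 3 array 4 lay inside the day 30 range for Gkn2. Tff1, a trefoil peptide of gastric mucus, read 10.33, 12.02, 12.03 and 7.53 at day 3 and 4.88, 5.17, 8.95 and 7.50 at day 30. It was called over all arrays (-3.85, SE 0.85, adjusted p = 0.0027) and not without arrays 2 and 3 (-2.30, adjusted p = 0.11). Day 30 array 3 was above the other day 30 arrays for this gene and for the mean of the gastric list. Of the 30 gastric genes 12 fell and 2 rose, and without arrays 2 and 3 5 fell and 0 rose. Of the 11 acinar genes 9 fell and 0 rose, and without those arrays 3 fell.

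**Figure D1:**
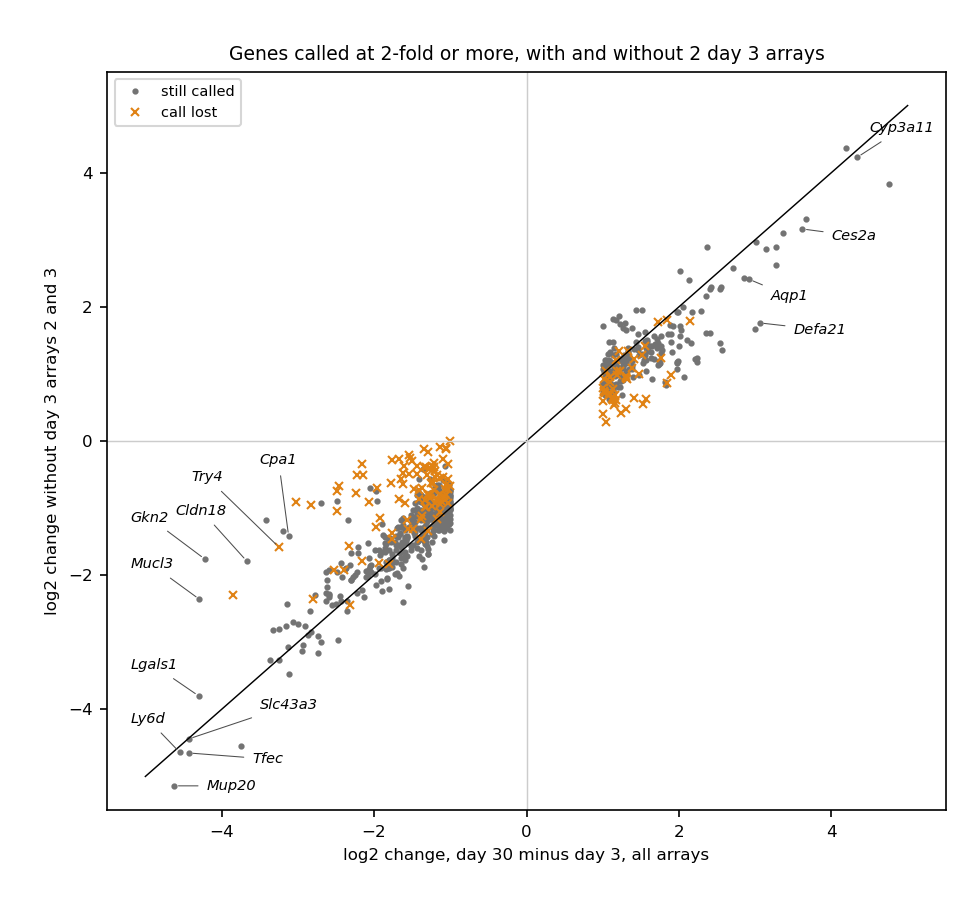
Each point is a gene called at 2-fold or more in fetal organoids; the x axis is its log2 change from day 3 to day 30 over all arrays, the y axis the change without day 3 arrays 2 and 3, and crosses mark lost calls. Points near the diagonal, such as Cyp3a11, Tfec and Slc43a3, kept their change, and Gkn2, Mucl3, Cldn18 and Try4 lie well above the diagonal.

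Among the largest rises outside the maturation panel were genes of drug, ester and amine breakdown. Cyp3a11, a cytochrome P450 that oxidises steroids and drugs, read 4.33, 4.10, 3.93 and 4.15 at day 3 and 8.38, 8.22, 8.07 and 9.22 at day 30. All day 3 arrays were near background and all day 30 arrays far above (4.34, SE 0.32, adjusted p = 5.7e-09). Its relative Cyp3a25 rose from a range of 3.88 to 4.98 to one of 6.76 to 9.05, and Cyp3a59, below background at day 3, rose by at least 7.62-fold. These genes, like the defensin genes below, resemble one another, so a probe may read several of them.

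Ces2a, an intestinal carboxylesterase, read 8.45, 7.78, 7.67 and 8.81 at day 3 and 11.82, 12.13, 11.27 and 11.97 at day 30. The groups did not overlap (3.62, SE 0.26, adjusted p = 3.5e-09). Ces1f, another carboxylesterase, rose by 2.71 and Cyp4f14, which hydroxylates fatty acids and leukotrienes, by 3.36. Maoa, the monoamine oxidase that breaks down serotonin, read 6.78, 5.88, 5.40 and 6.03 and then 9.07, 9.45, 8.61 and 10.02. Every day 30 array was above every day 3 array (3.27, SE 0.26, adjusted p = 1.3e-08). Slc27a2, an acyl-CoA synthetase for very long fatty acids, rose by 2.85. Of the list of 29 conjugation and detoxification enzymes 7 rose and 1 fell (median change 0.02; 5 and 0 without arrays 2 and 3), so most of that list was not called; its largest rise was Ephx1, microsomal epoxide hydrolase (2.37, SE 0.28, adjusted p = 2.8e-06; 2.89 without arrays 2 and 3).

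The water channel gene Aqp1 and the claudin gene Cldn15 were also among the 15 largest rises. Aqp1 read 5.98, 5.12, 5.62 and 6.80 at day 3 and 8.95, 8.70, 8.89 and 8.65 at day 30 (2.92, SE 0.26, adjusted p = 5.9e-08). The day 30 arrays lay close together and above all day 3 arrays. Cldn15, a claudin that forms sodium pores between enterocytes, read 6.75, 6.59, 6.16 and 7.06 and then 9.13, 9.42, 9.17 and 8.99. Its groups were also apart (2.54, SE 0.15, adjusted p = 2.6e-10), and its mean was 9.66 ± 0.26 in adult day 3 organoids and 7.26 ± 0.19 in P0 intestine (SD, n = 4).

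Antimicrobial and lectin genes, most of them Paneth cell products, made up the rest, and several of these differed within day 3. Defa21, an alpha-defensin, read 9.32, 6.73, 6.70 and 9.31 at day 3 and 10.65, 11.07, 11.33 and 11.27 at day 30. The day 3 arrays thus formed a high and a low pair, the low one being arrays 2 and 3, and the change was 3.06 over all arrays (SE 0.45, adjusted p = 4.4e-05) and 1.76 without that pair (adjusted p = 0.00036). Itln1, an intelectin, had the same split, reading 9.57, 7.70, 7.62 and 10.09 and then 10.88 to 11.52, with changes of 2.54 and 1.46. Defa22 (3.00 and 1.67) and Defa34 (2.56 and 1.36) likewise rose less without the pair. Reg3a, an antimicrobial lectin, did not share the split, as its day 3 arrays lay between 4.21 and 4.78 and its day 30 arrays between 7.88 and 9.99.

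**Figure D2:**
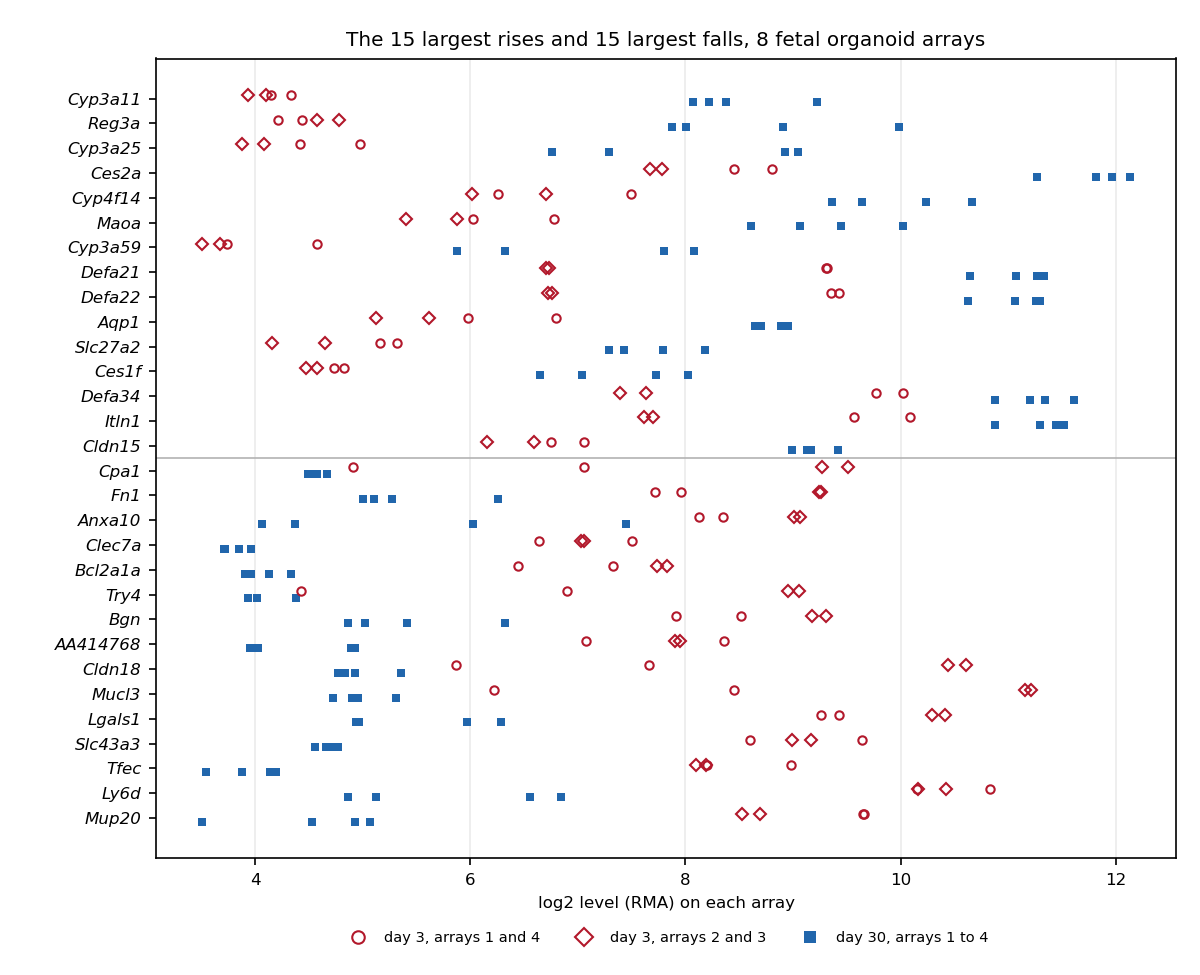
The x axis is the log2 level on each of the 8 arrays for the 15 largest rises (top) and 15 largest falls (bottom); open circles are day 3 arrays 1 and 4, open diamonds day 3 arrays 2 and 3, and filled squares day 30. In Defa21, Itln1, Mucl3, Cldn18, Try4 and Cpa1 the diamonds stand apart from the circles, whereas in Slc43a3 and Clec7a the diamonds lie between the circles.

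Among the 15 largest falls, Tfec had the smallest p. It encodes a transcription factor of the MiT family, and its arrays read 8.20, 8.10, 8.19 and 8.98 at day 3 and 4.19, 3.54, 4.14 and 3.88 at day 30. The day 30 mean was below background, which makes the fall at least 17.5-fold (adjusted p = 8.7e-14). In whole intestine it averaged 8.75 ± 0.34 at P0 and 3.86 ± 0.08, below background, in adults (SD, n = 4). Slc43a3, a carrier of purine bases, read 8.60, 9.17, 8.99 and 9.64 and then 4.66, 4.71, 4.77 and 4.56. The gap between the days was several times the range within either (-4.43, SE 0.25, adjusted p = 8.7e-11; -4.44 without arrays 2 and 3).

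Mup20, a major urinary protein, fell from 9.66, 8.69, 8.53 and 9.65 to 5.07, 3.51, 4.93 and 4.53 (-4.62, SE 0.44, adjusted p = 1.7e-07; -5.14 without arrays 2 and 3). Ly6d, a surface protein also known from squamous epithelium, fell from 10.15, 10.16, 10.42 and 10.83 to 5.12, 4.86, 6.56 and 6.84 (-4.55, SE 0.33). Neither was higher on arrays 2 and 3 than on both of the other day 3 arrays. Of the 28 measured squamous epithelium genes 4 fell and 2 rose (median -0.14; 3 and 1 without arrays 2 and 3), so most of them were not called. Lgals1, which encodes galectin-1, read 9.26, 10.29, 10.41 and 9.43 at day 3 and 5.97, 4.97, 6.29 and 4.94 at day 30. It was higher on arrays 2 and 3, and its change was -3.80 without them (-4.30 with them).

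Mucl3, a mucin-like gene, and Cldn18, a claudin of gastric tight junctions, followed the stomach genes within day 3. Mucl3 read 8.45, 11.21, 11.16 and 6.22 and then 4.72 to 5.31, and its change was -4.29 over all arrays and -2.36 without arrays 2 and 3 (adjusted p = 0.0016). Cldn18 read 7.66, 10.61, 10.44 and 5.87 and then 4.77 to 5.36, with changes of -3.67 and -1.79 (adjusted p = 0.00057). Day 3 array 4 was the lowest day 3 array for both and still above all day 30 arrays. The pancreatic trypsinogen gene Try4 (a fall of at least 8.54-fold, adjusted p = 0.0012) lost its call without those arrays (adjusted p = 0.067). Cpa1, a pancreatic carboxypeptidase, changed by -3.12 with them and -1.42 without them (adjusted p = 0.032). Anxa10, an annexin of gastric epithelium, read 8.35, 9.01, 9.07 and 8.13 and then 4.37, 4.06, 6.03 and 7.45, so the day 30 arrays spread widely below day 3 (-3.16, SE 0.69, adjusted p = 0.0026).

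The remaining large falls included genes of matrix and of myeloid cells. They were Bgn (biglycan, -3.33), Fn1 (fibronectin, -3.14; -2.43 without arrays 2 and 3), Bcl2a1a, a survival gene (at least 8.3-fold), and AA414768, which has only a clone name (-3.37). Clec7a, which encodes the fungal receptor dectin-1 of macrophages, read 6.64, 7.03, 7.06 and 7.50 at day 3 and 3.71, 3.72, 3.96 and 3.85 at day 30. The day 30 arrays were below background, for a fall of at least 7.06-fold (adjusted p = 8.3e-08; 9.7e-06 without arrays 2 and 3).

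Such genes are read beside the markers of other cell types. Of the 13 measured leukocyte markers 8 fell and 0 rose, with the same counts without arrays 2 and 3, and the list averaged 5.47 to 5.73 on the day 3 arrays and 4.80 to 4.90 on the day 30 arrays. Tyrobp, a signalling adaptor of myeloid cells, read 6.63, 6.98, 6.96 and 7.0 and then 4.97, 4.72, 5.03 and 4.43 (-2.10, SE 0.22, adjusted p = 6.5e-07). Fcer1g (-1.77) and the macrophage receptor gene Csf1r (-1.24) fell with it. Ptprc, which marks all leukocytes, the plasma cell gene Jchain and the mast cell gene Cpa3 were below background at both days, and the lymphocyte genes Cd3e (-0.09) and Cd52 (0.08) were not called. Of the 15 mesenchyme markers 13 fell and 1 rose (8 and 1 without arrays 2 and 3), and the list averaged 6.04 to 6.78 at day 3 and 5.36 to 5.63 at day 30. Its highest arrays were day 3 arrays 2 and 3 and day 30 array 3, as for the gastric list. Sparc (-1.92) and Col1a1 (-1.38; -0.88 without arrays 2 and 3) fell and Fbln1 rose (0.67). Of the 10 smooth muscle markers 4 fell and 0 rose (2 and 0 without arrays 2 and 3), Acta2 by the most (-1.73). Of the 10 endothelium markers 7 fell and 0 rose, led by Cdh5 (-1.29). In bulk RNA, fewer cells of a type and less RNA per cell cannot be told apart. The part of these cell types in the falls of matrix, protease, interferon and chemokine genes was not tested.

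**Figure D3:**
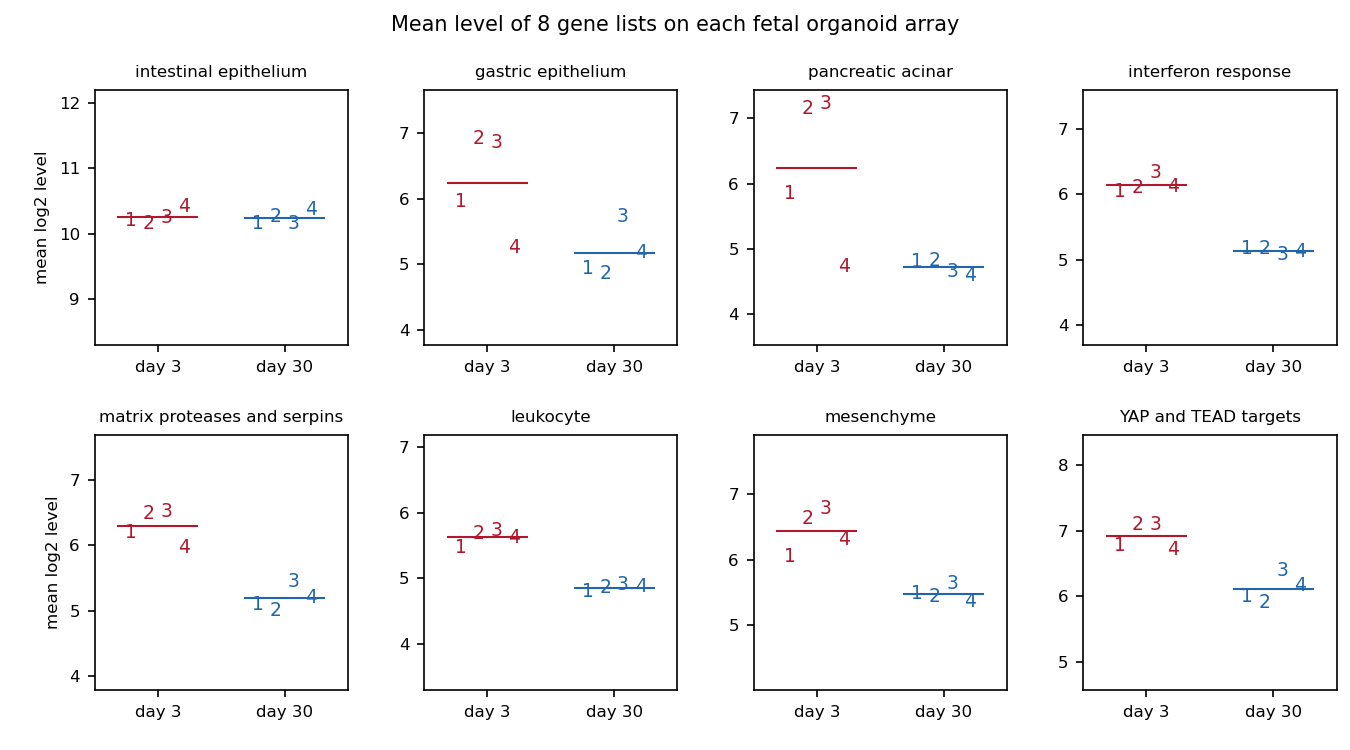
Each panel shows the mean log2 level of a gene list on each fetal organoid array, with digits for the array number and a line at the mean of the day; the y axes all span the same range. The mean of the intestinal epithelium genes stays level, though some of its genes were called. Gastric and acinar genes are highest on day 3 arrays 2 and 3, and interferon and leukocyte genes are high on all 4 day 3 arrays.

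Gene lists drawn up for other pathways are described by how many of their measured members were called and by their median change. Over all genes, 6.77% were called as rises and 8.76% as falls, and the median change was -0.033. The lists and their members were chosen with earlier results of these data known. Their shares are therefore not independent of these data, and the shares of all genes are given for scale. Of the 24 interferon-induced genes 19 fell and 1 rose (median -0.89), and 15 and 1 did so without arrays 2 and 3 (median -0.85). The list averaged 6.05, 6.10, 6.33 and 6.12 on the day 3 arrays and 5.17, 5.18, 5.08 and 5.12 on the day 30 arrays. All day 3 arrays were thus above all day 30 arrays by more than the range within a day. Interferon-induced genes act against viruses, among them RNA-binding Ifit proteins, oligoadenylate synthetases and the ubiquitin-like modifier ISG15 with its protease USP18.

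Ifit1 read 5.88, 5.81, 7.11 and 6.76 at day 3 and 4.00, 3.94, 3.27 and 4.32 at day 30, a fall of at least 4.4-fold (adjusted p = 8.5e-05). Usp18 read 6.53, 6.70, 7.0 and 6.27 and then 4.63, 4.18, 4.38 and 4.12. Its groups did not overlap (-2.30, SE 0.19, adjusted p = 2.3e-08). Oasl2 read 6.47, 6.26, 6.72 and 6.41 and then 4.61, 4.76, 4.56 and 4.63, with a small spread in both groups (-1.82, SE 0.13, adjusted p = 3e-09). Bst2, which encodes tetherin, fell by 1.94 and its lowest day 30 array read 6.87. Ifitm2 was the member that rose (0.62, SE 0.11, adjusted p = 0.00046). Isg15, named here after its values were seen, read 5.66, 5.56, 5.78 and 5.28 and then 4.03, 4.16, 4.00 and 4.20, a fall of at least 2.51-fold.

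The promoters of Isg15 and Ifit1 are shown because the list moved together. Of the 19 members of the interferon list with a promoter in the RefSeq table (build GRCm38.p6), 12 (63.2%) held the core of the interferon-stimulated response element (GAAA, any 2 bases, then GAAA, on either strand) in the 250 bases before the start, against 542 of 18265 measured promoters (2.97%). This motif was added after the values were seen. Of the list members that fell, 9 of 15 (60%) held it. The list was drawn up from interferon-induced genes, so its share reflects that choice and does not bear on the fall. The motif stood in 3.98% of the promoters of genes that rose at least 2-fold and in 6.12% of those that fell at least 2-fold. Capitals mark its matches, at -78 to -57 for Isg15 (3 overlapping matches; chr4:156200819-156201068, minus strand) and at -104 to -95 and -85 to -76 for Ifit1 (chr19:34640639-34640888, plus strand). A match describes the letters of the sequence and is not a measured binding site.
Isg15: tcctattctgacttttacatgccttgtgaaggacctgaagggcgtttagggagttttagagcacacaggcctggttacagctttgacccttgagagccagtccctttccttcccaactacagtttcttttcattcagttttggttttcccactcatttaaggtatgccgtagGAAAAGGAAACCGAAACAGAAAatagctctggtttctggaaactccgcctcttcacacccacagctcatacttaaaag
Ifit1: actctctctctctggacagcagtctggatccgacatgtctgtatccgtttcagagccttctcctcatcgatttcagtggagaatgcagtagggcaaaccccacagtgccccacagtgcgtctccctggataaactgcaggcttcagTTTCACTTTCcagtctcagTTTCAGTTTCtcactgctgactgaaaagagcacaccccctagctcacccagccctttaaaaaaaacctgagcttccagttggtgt

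Most of the listed matrix proteases, plasminogen activators and serpins fell. Of the 23 measured members 21 fell and 0 rose (median -0.87), and 14 fell without arrays 2 and 3 (median -0.66). The list averaged 6.19, 6.48, 6.51 and 5.97 at day 3 and 5.10, 5.0, 5.45 and 5.20 at day 30. Day 3 arrays 2 and 3 and day 30 array 3 were the highest of their days here too, but day 3 arrays 1 and 4 also stood above every day 30 array. Plat, tissue plasminogen activator, read 8.85, 8.81, 8.73 and 8.30 and then 5.89, 5.75, 6.71 and 6.15 (-2.55, SE 0.22, adjusted p = 4e-08). Mmp10, stromelysin-2, which wound-edge epithelium makes, read 6.85, 6.20, 6.0 and 5.46 and then 3.77, 3.71, 3.99 and 3.61, a fall of at least 3.7-fold (adjusted p = 4.9e-08). The gelatinase genes Mmp2 (-2.23) and Mmp9 (-2.08; -1.52 without arrays 2 and 3) fell as well. Plaur, the urokinase receptor gene, named after its values were seen, read 9.54, 9.51, 9.83 and 9.19 and then 7.11, 6.46, 8.47 and 7.76 (-2.07, SE 0.33, adjusted p = 0.00012).

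Mmp10 and Plaur each held 1 AP-1 motif, TGANTCA, close to the start, at -63 to -57 (chr9:7502092-7502341, plus strand) and at -69 to -63 (chr7:24462233-24462482, plus strand). The motif stood in 6 of 18 promoters of the list (33.3%) and in 6.58% of all measured promoters. Among list members that fell it stood in 5 of 16 (31.2%). It stood in 12.8% of the promoters of genes that fell at least 2-fold and in 10.2% of those that rose at least 2-fold. Capitals mark the match in each sequence.
Mmp10: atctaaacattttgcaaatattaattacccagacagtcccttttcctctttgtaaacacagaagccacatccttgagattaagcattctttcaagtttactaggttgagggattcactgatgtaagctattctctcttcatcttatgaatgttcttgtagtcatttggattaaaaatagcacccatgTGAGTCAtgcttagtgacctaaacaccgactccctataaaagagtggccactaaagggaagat
Plaur: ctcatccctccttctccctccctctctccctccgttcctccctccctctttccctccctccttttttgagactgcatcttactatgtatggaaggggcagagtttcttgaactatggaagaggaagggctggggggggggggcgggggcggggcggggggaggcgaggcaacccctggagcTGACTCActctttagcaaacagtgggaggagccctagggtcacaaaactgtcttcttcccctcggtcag

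Targets of YAP and TEAD, the effectors of the Hippo pathway, fell in 15 of 20 cases, and 1 rose (median -0.58). Without arrays 2 and 3, 7 fell and 0 rose. Ccn1, a secreted matricellular protein and a standard YAP target, read 7.75, 7.82, 8.01 and 7.52 and then 5.57, 6.11, 6.38 and 6.27 (-1.69, SE 0.20, adjusted p = 3.6e-06). The receptor kinase gene Axl read 6.97, 7.29, 7.38 and 7.15 and then 5.56 to 5.68 (-1.57, SE 0.12, adjusted p = 9.1e-09). Both kept the call without arrays 2 and 3 (-1.55 and -1.43). Myof, which encodes myoferlin, fell by 2.44, and tissue factor (F3, -1.55) lost its call without those arrays (-1.31, adjusted p = 0.068). Nuak2 rose over all arrays (0.39, adjusted p = 0.036) and was not called without them (0.20, adjusted p = 0.38). Its call was also lost without day 3 array 2 (0.36) or 3 (0.29) alone, or day 30 array 1 (0.40), 3 (0.37) or 4 (0.38) alone. The TEAD motif GGAATG, on either strand, stood in 7 of 14 promoters of the list and in 11.8% of all measured promoters. Among list members that fell it stood in 5 of 11 (45.5%). The list was drawn up from targets of YAP and TEAD, so its share reflects that choice and does not bear on the fall. The motif stood in 14.9% of the promoters of genes that fell at least 2-fold and in 13.6% of those that rose at least 2-fold. Ccn1 held it once, in capitals on the reverse strand, from -103 to -98 (chr3:145649986-145650235, minus strand).
Ccn1: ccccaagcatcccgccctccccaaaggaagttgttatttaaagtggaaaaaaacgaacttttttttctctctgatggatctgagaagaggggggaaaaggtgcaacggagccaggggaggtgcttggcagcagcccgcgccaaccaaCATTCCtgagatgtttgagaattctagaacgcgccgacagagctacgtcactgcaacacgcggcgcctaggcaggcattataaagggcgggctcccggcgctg

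Annexins, S100 proteins and galectins are calcium- or sugar-binding proteins, some of which are high in repairing epithelium. They fell in 14 of 24 cases, and 1 rose (median -0.58, and 9 and 1 without arrays 2 and 3). This list too was highest on day 3 arrays 2 and 3 (8.40 and 8.42, against 8.13 and 8.05) and on day 30 array 3 (7.63, against 6.94 to 7.46). Anxa5 read 8.82, 9.73, 9.85 and 9.61 and then 6.67, 6.49, 7.35 and 7.14 (-2.59, SE 0.25, adjusted p = 1.6e-07). Anxa3 (-2.39) was not called without arrays 2 and 3 (-1.92, adjusted p = 0.052). Lgals2, which encodes a galectin of gut epithelium, went the other way, from 9.26, 8.57, 8.55 and 9.41 to 10.13 to 10.18 (1.20, SE 0.14, adjusted p = 3.3e-06). Of 21 genes of the actin cytoskeleton and of SRF, a factor that reads actin assembly, 14 fell and 1 rose (median -0.44; 10 and 1 without arrays 2 and 3). Moesin (Msn, -1.88), filamin A (Flna, -1.35) and calponin 2 (Cnn2, -1.33) fell, while calponin 3 (Cnn3, 0.67, adjusted p = 0.042) rose with overlapping arrays. Its change was 1.01 without arrays 2 and 3, and it was not called without day 3 array 1 (0.45, adjusted p = 0.18) or 4 (0.65), or without day 30 array 2 (0.61), 3 (0.66) or 4 (0.55). Tubb2b, a beta-tubulin (-1.37), was not called without arrays 2 and 3 (-1.12, adjusted p = 0.1).

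Genes of the matrix beneath the epithelium and of the receptors that bind it fell in part, and no member of either list rose. Of 21 laminin and basement membrane genes 11 fell and 0 rose (median -0.37; 7 without arrays 2 and 3). Nidogen-1 (Nid1), which links laminin to collagen IV, read 8.76, 9.35, 9.66 and 9.22 and then 6.65, 5.96, 6.76 and 7.25 (-2.59, SE 0.25, adjusted p = 2.3e-07). The laminin chain genes Lamb1 (-1.79), Lama4 (-1.17) and Lama3 (-1.0) fell, Lama3 being a chain of epithelium and Lama4 one of mesenchyme and vessels. Of 15 integrin genes 9 fell and 0 rose (median -0.44; 7 without arrays 2 and 3), among them the fibronectin receptor chain Itga5 (-1.49) and the alpha-V chain Itgav (-1.31). Itgb6, an epithelial integrin that activates latent TGF-beta, read 7.50, 7.31, 7.72 and 7.40 and then 6.19, 6.11, 6.68 and 6.69 (-1.06, SE 0.16, adjusted p = 8.7e-05). Of 27 genes of TGF-beta and activin signalling 13 fell and 1 rose (median -0.37; 8 and 1 without arrays 2 and 3). Pmepa1, a target and feedback inhibitor of the pathway, fell by 1.84 and the receptor gene Tgfbr2 by 0.81, while the activin receptor gene Acvr1b rose (0.42, SE 0.10, adjusted p = 0.0059). The laminin, integrin and TGF-beta lists also averaged highest on day 3 arrays 2 and 3 and on day 30 array 3, as the gastric list did.

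**Figure D4:**
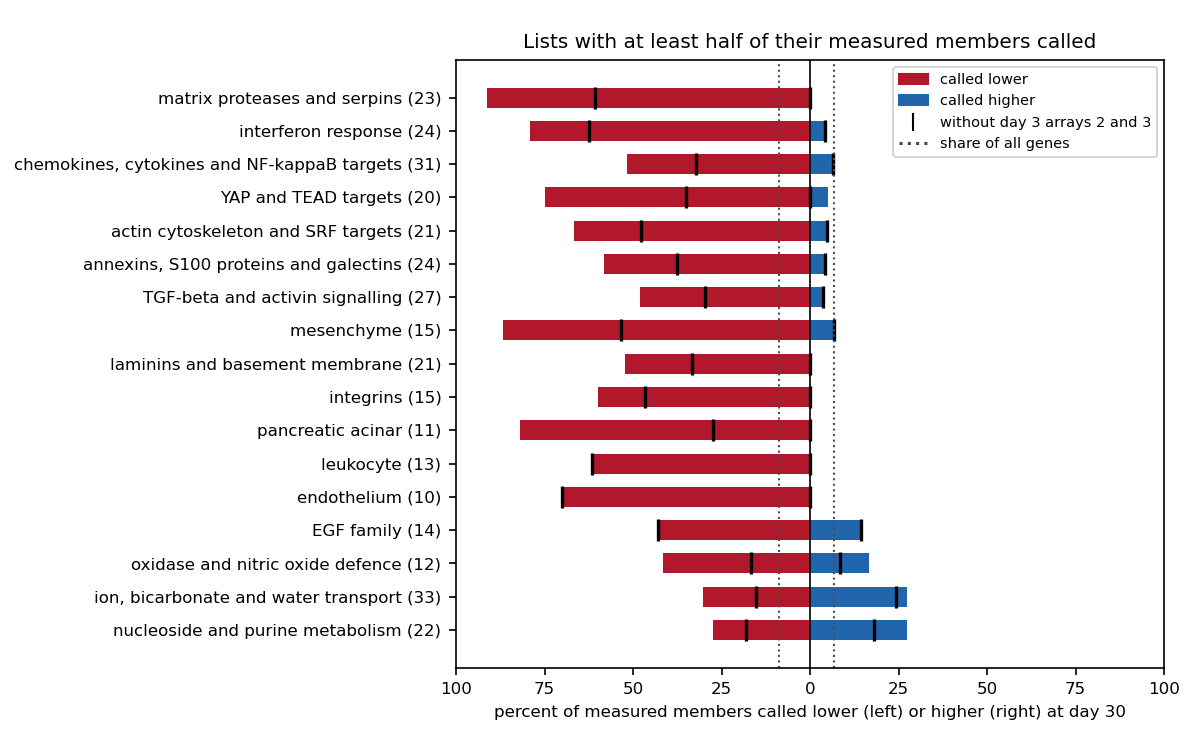
Bars give the percent of each list's measured members (number in brackets) called lower (left) or higher (right) at day 30, for the lists in which called members were at least as many as the others; black ticks give the same without day 3 arrays 2 and 3 and dotted lines the share of all genes (8.76% lower, 6.77% higher). The leukocyte, endothelium and EGF family bars are as long without those arrays, and the acinar bar is the one that shortens most.

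In the EGF family, ligand genes and the receptor gene fell while Lrig1 and Erbb2 rose. Of 14 measured genes 6 fell and 2 rose, with the same counts without arrays 2 and 3. The ligand gene Nrg1, neuregulin-1, read 5.74, 5.45, 5.73 and 5.16 and then 4.09, 3.90, 3.94 and 3.82, a fall of at least 2.43-fold (adjusted p = 2.2e-09). Epiregulin (Ereg, -1.44), the heparin-binding ligand Hbegf (-1.02) and the receptor gene Egfr (-0.80) fell too. Lrig1, an inhibitor of ErbB receptors and a stem cell marker, read 7.08, 7.39, 7.37 and 7.68 and then 8.63, 8.82, 8.56 and 8.84. Its groups were far apart (1.33, SE 0.12, adjusted p = 9.8e-08). Erbb2, the co-receptor gene, rose by 0.49 (adjusted p = 0.013), and was not called without day 3 array 1 (0.36, adjusted p = 0.059) or day 30 array 3 (0.41, adjusted p = 0.055).

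Of 31 chemokine, cytokine and NF-kappaB target genes 16 fell and 2 rose (median -0.57; 10 and 2 without arrays 2 and 3). Il1a fell from 5.68, 6.21, 6.24 and 5.79 to 3.27 to 3.53, below background (at least 3.35-fold, adjusted p = 2.3e-08). The monocyte chemokine gene Ccl2 fell by 1.99 and so did Cxcl16, whose product binds scavenged lipids and recruits T cells. The chemokine genes that rose were those of mucosal homing. Ccl28, which draws IgA-producing cells to mucosa, read 6.98, 5.63, 4.95 and 6.80 and then 8.92, 8.0, 8.38 and 8.69 (2.41, SE 0.30, adjusted p = 6.4e-06). Arrays 2 and 3 were the low ones at day 3, and without them the change was 1.61 (adjusted p = 5e-05). Ccl25, the small intestinal chemokine for CCR9-bearing lymphocytes, rose by 0.95 (0.64 without arrays 2 and 3). The prostaglandin synthase gene Ptgs2 fell by 2.21 (SE 0.26, adjusted p = 3.2e-06), one of 7 of 24 prostanoid pathway genes that fell, while 1 rose (median -0.11; 5 and 2 without arrays 2 and 3).

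Transport genes went both ways. Of 33 genes of ion, bicarbonate and water transport 9 rose and 10 fell (median -0.06, which becomes 0.03 with arrays centred on their median), and 8 rose and 5 fell without arrays 2 and 3. Among the rises were genes of chloride and fluid secretion. Slc12a2, the basolateral sodium-potassium-chloride cotransporter, read 8.56, 8.60, 8.52 and 8.82 and then 9.81, 10.15, 10.16 and 10.25 (1.46, SE 0.15, adjusted p = 4.2e-07). Its groups did not overlap, nor did those of the potassium channel gene Kcnq1 (1.78; 1.36 without arrays 2 and 3) and of Cftr, the apical chloride channel (1.14, adjusted p = 0.0004; 0.83 without arrays 2 and 3). Slc26a3, the chloride and bicarbonate exchanger, rose by 1.07. Falls included 2 carbonic anhydrases, Car1 (at least 4.18-fold) and Car4 (-1.46), and the chloride channel regulators Clca4a (-1.66) and Clca1, a goblet cell product (-1.32, adjusted p = 0.032; -0.98, adjusted p = 0.24 without arrays 2 and 3). The call of Clca1 was also lost without day 3 array 2, 3 or 4 or day 30 array 2 or 4 alone, with changes from -1.30 to -0.98. Slc6a14, an amino acid carrier, read 4.64, 6.59, 6.93 and 7.44 at day 3 and 2.79 to 4.31 at day 30, a fall of at least 4.43-fold with array 1 far below the other day 3 arrays.

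Enzymes that handle nucleosides and purines also went both ways, with 6 of 22 rising and 6 falling (4 and 4 without arrays 2 and 3). Dpyd, which breaks down pyrimidines, rose by 1.56 (SE 0.24, adjusted p = 9.8e-05) and the ectonucleotidase gene Entpd8 by 1.28. Xdh, xanthine dehydrogenase, rose by 0.82 and was not called without arrays 2 and 3 (0.69, adjusted p = 0.061). Ada, adenosine deaminase, read 8.33, 8.08, 8.09 and 8.13 and then 6.25, 6.76, 6.39 and 6.85 (-1.59, SE 0.28, adjusted p = 0.00039). Nt5e, which makes adenosine outside the cell, fell by 1.46 (-0.93 without arrays 2 and 3) and the purine nucleoside carrier gene Slc28a2 by 1.17. Of 12 oxidase and nitric oxide genes 5 fell and 2 rose (2 and 1 without arrays 2 and 3). Duox2, which makes hydrogen peroxide at the apical surface, and its partner Duoxa2 fell over all arrays (-2.16 and -2.80) and were not called without arrays 2 and 3 (adjusted p = 0.11 and 0.065). The Nox1 activator gene Noxa1 rose by 0.82.

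Transcription factors of enterocytes leaned upward, with 10 of 24 rising and 1 falling (median 0.34), and 5 and 0 without arrays 2 and 3. Vdr, the vitamin D receptor, read 6.95, 6.68, 6.68 and 7.39 and then 9.26, 9.07, 9.32 and 8.73 (2.17, SE 0.19, adjusted p = 4.3e-08). All day 30 arrays were above all day 3 arrays, and the mean was 6.6 ± 0.19 in P0 and 10 ± 0.16 in adult intestine (SD, n = 4). The thyroid hormone receptor gene Thrb rose by 0.98 and the epithelial factor gene Ehf by 0.90, and Klf4 fell over all arrays only (-0.97; -0.48, adjusted p = 0.23 without arrays 2 and 3). Mlxipl, which encodes the sugar-responsive factor ChREBP, rose by 1.91 (1.33 without arrays 2 and 3). Arid3a, whose product is a DNA-binding factor, read 7.87, 7.96, 7.87 and 8.04 and then 6.92, 6.80, 6.97 and 6.78. The spread within a day was small beside the fall (-1.07, SE 0.09, adjusted p = 2.7e-08).

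Promoters of genes that rose at least 2-fold held the HNF1 motif GTTAAT in 22 of 176 cases (12.5%), those of genes that fell at least 2-fold in 23 of 343 (6.71%), and all measured promoters in 5.96%. The HNF4 motif CAAAGT stood in 20.5% of the first, 17.5% of the second and 12.3% of all. For the CDX motif TTTATG these shares were 11.4%, 8.45% and 9.77%, for the GATA motif GATAAG 9.66%, 7.58% and 5.93%, and for the E-box CACGTG 6.25%, 4.66% and 6.68%. All motifs were searched on both strands, and the shares are descriptions with no test.

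Signalling pathways of the crypt held calls in both directions. Of 31 Wnt ligand, receptor and secreted inhibitor genes 4 rose and 5 fell (median -0.14; 3 and 2 without arrays 2 and 3), among them Wnt3, the Wnt of Paneth cells (0.74, adjusted p = 0.00016), and Wnt5a, a Wnt of mesenchyme (-0.81, adjusted p = 1.9e-07). Of 20 Notch pathway genes 3 rose and 1 fell (median -0.06, which changes sign with arrays centred on their median; 1 and 1 without arrays 2 and 3). Notch1 rose by 0.44, and Atoh1, the secretory lineage factor, rose by 1.10 and was not called without arrays 2 and 3 (0.70, adjusted p = 0.2) or without day 30 array 3 (0.89, adjusted p = 0.052). Several lists of basic cell function had shares of calls below the 15.5% of all genes. Of 32 respiratory chain subunits 2 rose and 0 fell (median 0.04), of 29 DNA replication and division genes 0 rose and 1 fell (0.05), of 19 cholesterol synthesis genes 1 rose and 0 fell, and of 18 genes of protein folding in the endoplasmic reticulum 1 rose and 0 fell. A call that is missing does not show that a gene held its level. Of 20 NRF2 target and antioxidant genes 8 fell and 1 rose (median -0.32; 4 and 0 without arrays 2 and 3), led by the cystine carrier gene Slc7a11, which lost its call without arrays 2 and 3 (-1.93 with them; -1.82, adjusted p = 0.092 without them) and without day 3 array 1 (-1.48, adjusted p = 0.064) or day 30 array 1 (-1.56, adjusted p = 0.062).

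Lipid, vitamin A and metal handling each held genes with clear changes, while most members of these lists were not called. Of 23 genes of fatty acid and triglyceride synthesis 4 rose and 6 fell (median -0.06, which changes sign with arrays centred on their median; 5 and 4 without arrays 2 and 3). Dgat2, which catalyses the last step of triglyceride synthesis, read 10.61, 10.01, 10.17 and 10.40 and then 8.35, 8.69, 8.57 and 8.25. Its groups did not overlap (-1.83, SE 0.23, adjusted p = 7.6e-06), and its mean was 12.15 ± 0.03 in P0 intestine (SD, n = 4). The lipid droplet coat gene Plin2 fell by 1.13 (adjusted p = 0.00023). Of 21 peroxisomal enzyme genes 4 rose and 1 fell (median 0.09; 4 and 0 without arrays 2 and 3), among them the branched-chain acyl-CoA oxidase gene Acox2 (1.04, adjusted p = 0.00034) and Pex11a, a gene of peroxisome division (0.59). Of 25 retinoid genes 5 rose and 7 fell (median -0.14; 3 and 5 without arrays 2 and 3). Aldh1a2, which makes retinoic acid, read 5.56, 5.94, 6.15 and 5.63 and then 4.70, 4.80, 4.74 and 4.58. The day 30 arrays lay together below all day 3 arrays (-1.12, SE 0.13, adjusted p = 1.7e-06). The retinol carrier gene Rbp4 fell by 1.33, and Bco2, which cleaves carotenoids, rose by 0.97. Of 24 iron, copper and zinc genes 7 fell and 2 rose (median -0.23; 5 and 0 without arrays 2 and 3). Slc40a1, which encodes the iron exporter ferroportin, read 7.53, 7.46, 7.58 and 8.30 and then 5.56, 5.97, 7.08 and 5.71. Day 30 array 3 was nearest to day 3 (-1.64, SE 0.31, adjusted p = 0.00067). The zinc carrier gene Slc30a2 (-1.04) and the metalloreductase gene Steap4 (-0.93) fell as well.

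Genes of cell position, junctions and growth control also moved in part. Of 17 ephrin and Eph receptor genes, which sort cells along the crypt, 6 rose and 2 fell (median 0.02; 3 and 1 without arrays 2 and 3). Ephb4 read 7.37, 7.43, 7.47 and 7.76 and then 8.23, 8.25, 8.37 and 8.45 (0.82, SE 0.11, adjusted p = 1.1e-05). The crypt receptor gene Ephb3 rose by 0.76 and Epha2 fell by 1.26 (adjusted p = 0.0012) with overlapping arrays. Of 19 claudin and tight junction genes 5 fell and 1 rose (median -0.11; 4 and 1 without arrays 2 and 3), among them Cldn4 (-1.39, SE 0.29, adjusted p = 0.0015). Of 19 p53 targets and cell cycle inhibitors 4 fell and 2 rose (median -0.13; 4 and 1 without arrays 2 and 3). Cdkn1c, an imprinted inhibitor of cyclin-dependent kinases, read 8.15, 7.79, 7.69 and 7.48 and then 6.76, 6.92, 6.77 and 6.94 (-0.93, SE 0.12, adjusted p = 1e-05). Of 22 genes of serine synthesis and of ATF4, a stress factor, 6 fell and 4 rose (median -0.32; 2 and 1 without arrays 2 and 3). Its target gene Ddit3 fell by 0.90 (adjusted p = 0.0061), with array 1 the highest at day 3 (9.11 against 7.69 to 8.09). Of 24 amino acid and peptide transporter genes 5 fell and 2 rose (median -0.25; 3 and 1 without arrays 2 and 3), the larger rise being that of the glutamate carrier gene Slc1a1 (1.77, SE 0.32, adjusted p = 0.00043; 1.31 without arrays 2 and 3). Of 18 genes of DNA methylation, Polycomb and the let-7 axis 2 fell and 1 rose (median 0.04; 1 and 1 without arrays 2 and 3), and the fetal growth gene Hmga2 (-0.43, adjusted p = 0.0042) was not called without arrays 2 and 3 (-0.31, adjusted p = 0.11).

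The same days of culture were compared in adult organoids. There 15 genes were called (0.0489%). The fetal change differed from the adult change for 918 genes (2.99%), by limma's test of the difference itself. Of the 15 largest fetal rises, all had a called difference, from 2.14 for Defa34 (adjusted p = 0.042) to 5.39 for Cyp3a11 (adjusted p = 3e-07). Without day 3 arrays 2 and 3, 12 of them had one, and Defa21, Defa22 and Defa34 did not (adjusted p = 0.072, 0.087 and 0.15). Of the 15 largest falls, 10 had one, and Mucl3, Try4, Anxa10, Fn1 and Cpa1 did not (adjusted p from 0.05 to 0.56). Without those arrays 8 had one, as Cldn18 (adjusted p = 0.056) and Bgn (0.12) lost theirs. In adult organoids Tfec was below background at both days, and the adult change was -0.09 for Vdr and 0.03 for Cldn15. For the difference, 13 of 24 interferon genes were called lower and 0 higher, 12 of 23 proteases and serpins were lower, and 6 of 13 leukocyte markers were lower. For YAP targets it was 3 of 20. Without arrays 2 and 3 the lower calls were 10, 6, 3 and 2. The interferon list averaged 5.49 in adult day 3 and 5.44 in adult day 30 organoids, and 6.55 in P0 and 6.62 in adult intestine. The leukocyte list averaged 5.08 and 4.88 in adult organoids, 5.41 in P0 and 6.62 in adult intestine.

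**Figure D5:**
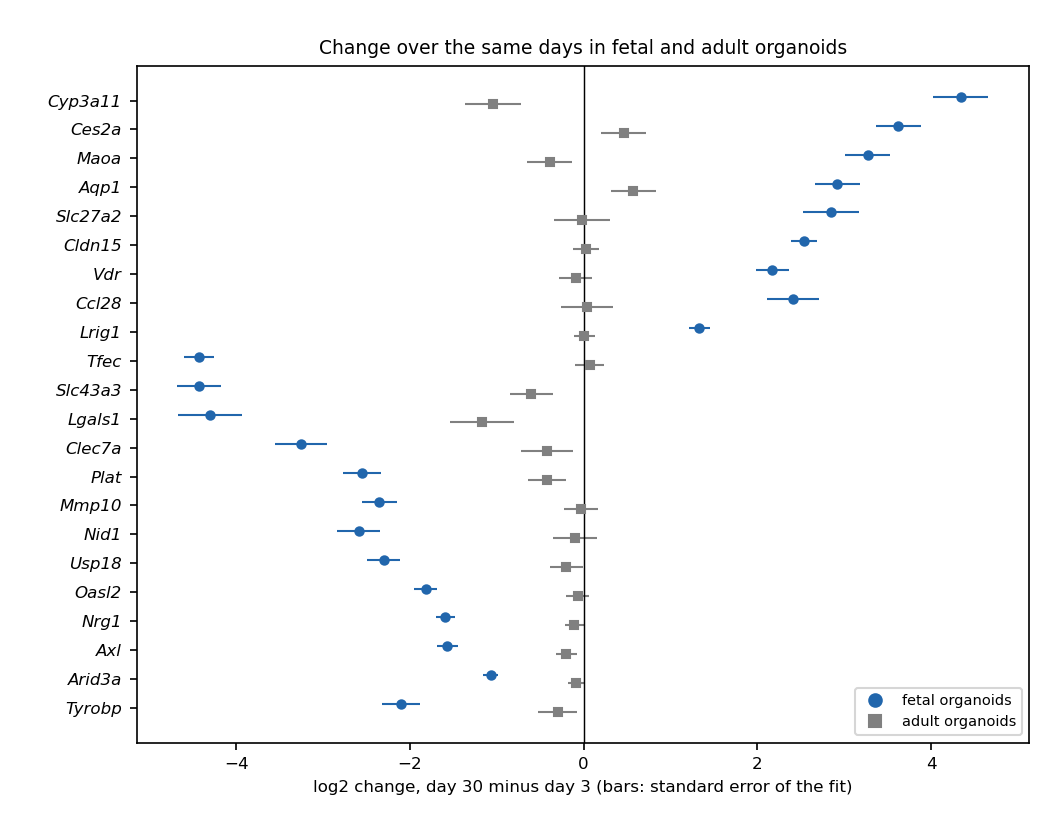
Points give the log2 change from day 3 to day 30 with the SE of the fit, in fetal (blue circles) and adult organoids (grey squares), for genes named in the text and picked after their values were seen; changes of genes below background, such as Tfec, are fitted values. Of the adult changes, those of Lgals1 (-1.17) and Cyp3a11 (-1.04) lie farthest from 0, and each fetal change is farther from 0 than the adult change of its gene.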

How the data were processed

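RNA was measured on 24 single-colour Affymetrix arrays, and 8 of them form the comparison. Total RNA was extracted with Trizol and labelled with biotin, per the labels' protocols. The deposited values are log2 levels made by the authors with RMA in Affymetrix Expression Console, per the submitters' processing notes. RMA corrects background, quantile normalizes arrays and sums up probes, so a shift shared by all genes of an array is removed. Tool versions, the genome build and the set of arrays in the RMA run are not stated here. Precision is limited by how many arrays there are.

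Of 65956 transcript clusters, 31258 named 1 gene by the platform annotation, with symbols updated through RefSeq. Where a gene had several clusters (441 genes), the one with the highest mean was used, giving 30702 genes. The 1492 clusters that named several genes were left out, and 33206 had no listed symbol.

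All 24 arrays were fitted as 6 group means in R 4.3.3 with limma 3.58.1 (18 residual and 4.25 prior degrees of freedom). P-values were adjusted by Benjamini-Hochberg over all genes. The bound of a gene below background sets the mean of the brighter day against the median of the negative controls, array by array, or the gene's own level where that is higher. Genes named are the 15 largest rises and falls whose arrays do not overlap, without provisional names or the maturation panel, and per list up to 4 called members with the largest change plus those that go the other way. The text prints some of them, and genes outside this rule are said to be chosen after their values were seen. Lists where most members were not called are given by counts, with a few of their named genes. The members and lists were chosen with earlier results of these data known. Replicate numbers were checked for pairing. The deviations of same-numbered arrays correlated at 0.249, -0.056, 0.158 and 0.036, and those of other arrays at -0.232 to 0.171. Such correlations cannot decide if same-numbered arrays share an origin, which the labels leave unsaid.

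Alternatives were another way to join clusters, a filter on dim genes, another prior, the 8 arrays alone, 2 other scalings, a replicate block, array weights, a threshold of 0.01, and arrays left out singly and in pairs. Fits were tested on simulated data. Promoter sequences are those of RefSeq, build GRCm38.p6, of which 18265 matched a measured gene. Annotation and figures used Python 3.11.15, pandas 2.3.3 and matplotlib 3.10.9.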

Additional observations from a re-analysis of the deposited data

Results flagged for a closer look

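Within groups of 4 arrays, 98 were looked at for an array far from the others and 2 were found, where chance gives about 1 in 20. Tfec read 8.98 on day 3 array 4 against 8.10 to 8.20 on the others, and the mean of the ion, bicarbonate and water transport list was 7.06 on day 30 array 1 against 7.32 to 7.37.

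The fetal change minus the adult change passed limma's test of the difference for 25 of the 30 largest fetal changes. Among enzymes and carriers it was 5.39 for Cyp3a11, 4.67 for Cyp3a25, 4.10 for Cyp3a59, 3.74 for Cyp4f14, 3.66 for Maoa, 3.16 for Ces2a, 2.95 for Ces1f and 2.87 for Slc27a2. For products of Paneth cells and related lectins it was 4.53 for Reg3a, 2.62 for Defa21, 2.54 for Defa22, 2.14 for Defa34 and 2.51 for Itln1, and for surface genes 2.51 for Cldn15 and 2.35 for Aqp1. Without day 3 arrays 2 and 3 it was 1.32 for Defa21, 1.21 for Defa22 and 0.94 for Defa34, none of them called, and 1.43 for Itln1, which was called. The falls differed by -4.50 for Tfec, -3.88 for Ly6d, -3.83 for Slc43a3, -3.79 for Mup20, -3.35 for Cldn18, -3.14 for AA414768, -3.13 for Lgals1, -2.87 for Bcl2a1a, -2.83 for Clec7a and -2.63 for Bgn. Without those arrays it was -1.47 for Cldn18 and -2.11 for Bgn, neither called. The values of Cyp3a59, Tfec, Bcl2a1a and Clec7a are fitted ones, since a fetal mean lay below background, and do not give the size of the difference.

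Transcript clusters without a listed symbol, which enter no comparison above, had 1831 calls among 33206 (5.51%), of which 1403 were higher and 428 lower at day 30. At least 2-fold, 351 were higher and 84 lower. Of those 351, 288 had both means above the negative controls, 48 had a day 3 mean below them and 15 had both below. The median level of these clusters was 3.72 at day 3 and 3.73 at day 30.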

How the results depend on the processing

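None of the 269 named genes changed sign under the alternatives fitted, of which the filter on dim genes tested 259. Leaving arrays out cannot change the sign of a gene whose day 3 and day 30 arrays do not overlap. The threshold of 0.01 is not counted here. In all these fits 158 kept their call, and 111 lost it at least once, 79 of them without day 3 arrays 2 and 3 and 67 with the 8 arrays alone. With those 8 arrays alone, 1011 genes rose and 1491 fell, and with arrays centred on their median 3485 rose and 1829 fell, so that 65.6% of the called genes rose against 43.6%. A second quantile normalization gave 2496 and 2493 (50%). Centring moved the median change of all genes from -0.033 to 0.0554. It also lowered the falls from 19 to 16 for interferon genes, from 21 to 18 for proteases and serpins and from 16 to 13 for chemokines. For YAP targets they went from 15 to 11 and for TGF-beta genes from 13 to 10. Leukocyte markers kept 8 falls and acinar genes 9. Without day 3 arrays 2 and 3, 1266 rose, and at an adjusted p under 0.01 1113 rose and 1610 fell. Leaving out 1 array at a time gave 1657 to 2115 rises and 2178 to 2879 falls, and at 2-fold 222 to 288 rises and 410 to 540 falls. For the difference from the adult change, 313 genes were higher and 605 lower; without arrays 2 and 3 these were 177 and 386, at an adjusted p under 0.01 137 and 285, and at 2-fold higher 92 and 95 against 148. The replicate block gave 1959 rises and 2578 falls, and array weights, of which the lowest was 0.252 for day 3 array 1, gave 1968 and 2576. The calls of 10 named genes were lost under the block, and the labels do not say if the numbers pair the arrays. Genes below the negative controls have only a bound.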
